A study of Mus musculus with 12 samples.

Results

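The 33 genes described here encode enzymes of cholesterol and fatty acid synthesis together with the regulators that control their transcription. They were picked by symbol from a deposited table of raw counts for 23420 genes, by a rule that uses no measured value but was drawn up with earlier results of these data known. All 33 were found, 1 of them (Msmo1) under its older symbol Sc4mol, and all 33 passed the filter on low counts, among 13095 genes tested. The counts came from RNA-Seq of 12 subcutaneous B16-F10 tumors, 3 from each of 4 groups of male C57BL/6J mice that differed in diet and antibody. B16-F10 is an established melanoma cell line of C57BL/6 origin, and no altered allele is named for the mice. Nonobese mice were fed a control diet, and obese mice were fed a Western diet with 0.2% added cholesterol for 15 weeks. Mice of either diet were given an anti–PD-1 antibody (clone 29F.1A12) or an isotype control antibody (clone 2A3), at 10 mg/kg, repeatedly after tumors became palpable. Groups are named by diet and antibody, for example obese isotype. Every tumor grew from the same cell line, so tumors of a group are separate mice but not separate cancers.

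Cholesterol is built from acetyl-CoA through mevalonate to farnesyl diphosphate and squalene, and then through a series of sterol intermediates. Fatty acids are built from the same acetyl-CoA by carboxylation, chain assembly, elongation and desaturation. Both routes are under the control of the sterol regulatory element-binding proteins (SREBPs). These are carried to the Golgi by SCAP for activation when membrane sterol is low, and are held in the endoplasmic reticulum by INSIG proteins when sterol is plentiful. A diet rich in cholesterol is known to lower the pathway in the liver, and here the same genes were measured in tumors of mice on such a diet, with and without PD-1 blockade.

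Total counts per tumor ranged from 14022929 to 33871843. The 33 genes took between 0.745% of the counts (obese isotype tumor 2) and 1.03% (nonobese isotype tumor 1). Nonobese isotype tumor 1 was the highest of the 12 tumors for 15 members. Its median deviation of members from the mean of its own group was 0.188 (log2). Obese isotype tumor 2, which also had the smallest library, was the lowest for 12 members but the highest for 3, so that it was not low throughout. Its median deviation from its own group was −0.024. In nonobese isotype tumors 2 and 3 that median was −0.104 and −0.111. For each gene the deviations within a group cancel out. These values therefore partly mirror tumor 1 of the same group and are not ranked against other groups. In obese isotype tumor 2, the deviation of a gene from its group mean was also related to exon length, with Pearson r = −0.351 across 12340 genes and −0.568 across the 33 members. In obese isotype tumor 3 the same correlations were 0.38 and 0.652, and in obese isotype tumor 1 the deviations followed GC content instead (r = 0.357 and 0.576). Relations of members to GC content were not limited to that tumor. Across members r was −0.444 in obese isotype tumor 2, and 0.525 and −0.463 in nonobese anti–PD-1 tumors 1 and 3. It was −0.467 and 0.417 in obese anti–PD-1 tumors 1 and 2. Across all genes r in these tumors lay between −0.137 and 0.074. As deviations within a group cancel out, a trend in a single tumor gives an opposite trend in the others of its group. Opposed values within a group are therefore not separate properties of those tumors. These correlations are across genes, which are not independent replicates, and their part in the results below was followed by leaving out tumors and by an offset for GC content and length. All 8 melanocyte markers examined were expressed in every tumor, with summed levels of 26040 to 31890 CPM, counts scaled to a common library size. As the tissue is a mixture, fewer cells of a type and less RNA per cell cannot be told apart.

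Levels spanned more than 2 orders of magnitude, and Scd2, Acly and Fasn of fatty acid synthesis were among the 4 most abundant members, whereas Me1, Acaca, Elovl6 and Acss2 of the same route ranked 24th, 26th, 27th and 30th of 33. Levels between genes were compared as CPM per kilobase of exon, averaged over 12 tumors. Scd2, a stearoyl-CoA desaturase that introduces the first double bond into saturated fatty acids, ranked 1st at 455 CPM per kilobase and alone made up 28.5% of all CPM of the 33 genes. Fdps, which makes farnesyl diphosphate, followed at 352, Acly, which splits citrate into cytosolic acetyl-CoA, at 172, and Fasn, the fatty acid synthase, at 103 CPM per kilobase. At the other end were Stard4, a sterol carrier, at 5.2, Ggps1, which makes geranylgeranyl diphosphate, at 4.01, and Idi1, which isomerizes isopentenyl diphosphate, at 3.12 CPM per kilobase. The regulators were not rare, with Srebf2 at 86.4, Insig1 at 65.3, Scap at 42.7 and Srebf1 at 29.8 CPM per kilobase. Some of these levels are uncertain because parts of the transcripts also occur in other annotated genes, whether as copies or through overlap. Of all 100-base windows in their annotated transcripts, 23.7% for Acaca, 21.4% for Fdps, 15.8% for Idi1 and 12.3% for Me1 also occurred in another gene. For Tm7sf2, 7.92% of windows were shared with Vps51.

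**Figure D1:**
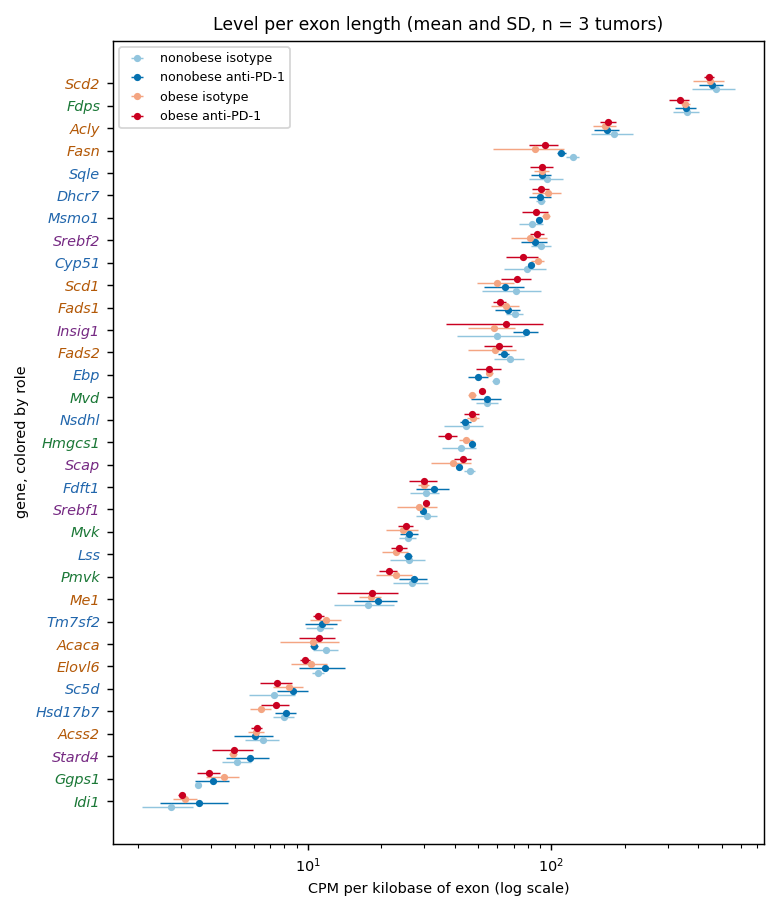
Level of each of the 33 genes in CPM per kilobase of exon (horizontal log axis), with the mean and SD of 3 tumors in each of the 4 groups and gene names colored by role. Scd2 is highest at 455 and Idi1 lowest at 3.12 over all tumors, and the 4 groups lie close together for nearly every gene compared with the spacing between genes.

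The promoters were examined because both SREBPs bind sterol regulatory elements, usually beside sites of the factor NF-Y. RefSeq promoter windows (GRCm38.p6, from 250 bases before to 50 after a start) were matched for 26 of the 33 genes. Fdps, Fdft1, Sqle, Stard4, Scd1, Scd2 and Fads1 had no entry. The letters CCAAT, the core of an NF-Y box, were present on either strand in windows of 22 of the 26 genes, against 41.1% of 27025 genes. Counted by window, the shares were 69.7% of 33 member windows and 37.4% of 32851 windows. The letters CACGTG, an E-box, were present in windows of 5 genes (Hsd17b7, Sc5d, Dhcr7, Scap and Insig1), or 18.2% of member windows against 7.15% of all. The stricter letters TCACNCCAC, a classical sterol regulatory element, were present in Hmgcs1 only, and in 1.24% of all windows. Such matches describe the letters and are not evidence of binding. Below are the upstream parts, 5′ to 3′ on the strand of the gene, for 4 genes. Hmgcs1 and Fasn are shown because they had the smallest P values in the diet comparisons, Hsd17b7 because it was lower in obese isotype tumors, and Insig1 because it varied most between tumors. They lie at chr13:119690101-119690350 (plus strand), chr11:120824548-120824797 (minus), chr1:169969242-169969455 (minus) and chr5:28071162-28071362 (plus), with any annotated exon left out. Capitals mark these 3 kinds of letters on either strand, so that an NF-Y box read on the other strand appears as ATTGG.
Hmgcs1: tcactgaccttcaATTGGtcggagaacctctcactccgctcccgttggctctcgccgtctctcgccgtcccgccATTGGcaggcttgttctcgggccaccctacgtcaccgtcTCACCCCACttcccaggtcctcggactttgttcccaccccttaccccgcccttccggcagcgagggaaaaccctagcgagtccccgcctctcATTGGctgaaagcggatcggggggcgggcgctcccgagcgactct
Fasn: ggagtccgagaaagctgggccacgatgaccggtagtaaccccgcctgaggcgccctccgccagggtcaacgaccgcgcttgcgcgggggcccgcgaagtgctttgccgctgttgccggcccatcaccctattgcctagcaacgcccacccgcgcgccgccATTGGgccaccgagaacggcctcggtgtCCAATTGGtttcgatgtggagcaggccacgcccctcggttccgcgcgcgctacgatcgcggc
Hsd17b7: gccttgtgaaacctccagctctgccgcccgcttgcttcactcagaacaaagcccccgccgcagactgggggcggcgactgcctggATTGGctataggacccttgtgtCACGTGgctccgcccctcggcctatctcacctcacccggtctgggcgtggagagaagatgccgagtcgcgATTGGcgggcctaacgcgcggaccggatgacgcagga
Insig1: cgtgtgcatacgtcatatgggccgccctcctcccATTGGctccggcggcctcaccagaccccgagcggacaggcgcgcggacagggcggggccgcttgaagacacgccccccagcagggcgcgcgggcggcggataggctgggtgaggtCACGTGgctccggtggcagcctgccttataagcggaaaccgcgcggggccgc
The printed part of Hmgcs1 holds 3 NF-Y letter matches and 1 sterol regulatory element, and that of Fasn holds 3 NF-Y matches, of which 1 pair overlaps on opposite strands. The printed part of Hsd17b7 holds 2 NF-Y matches and 1 E-box, and that of Insig1 holds 1 of each. The whole windows of Hmgcs1 and Hsd17b7 each hold 1 more NF-Y match, outside the printed parts.

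Across all 12 tumors the members varied about as much as other genes of similar abundance. Between its highest and lowest tumor, 30 of the 33 genes (90.9%) varied less than 2-fold, against 87.6% of 9147 genes in the same range of CPM. The median SD within groups was 0.181 on the log2 scale for members and 0.173 for those 9147 genes, and the median ratio of highest to lowest tumor was 1.55 and 1.52. The 3 exceptions were Insig1 (2.47-fold), Fasn (2.39-fold) and Idi1 (2.06-fold). Insig1, itself a classical SREBP target and the anchor that retains SCAP, was also the most variable member within groups, with an SD of 0.432 that only 3.09% of the 9147 genes exceeded. Insig1 measured 217, 144 and 121 CPM in nonobese isotype tumors, 202, 242 and 194 in nonobese anti–PD-1 tumors, 121, 189 and 159 in obese isotype tumors, and 252, 170.3 and 102 in obese anti–PD-1 tumors. Its highest and lowest values thus belonged to the same group, obese anti–PD-1. Idi1 measured 7.04 to 10.5 CPM in nonobese isotype tumors and 7.88 to 14.5 in nonobese anti–PD-1 tumors, and stayed between 8.25 and 10.3 in the obese tumors. These 2 genes were singled out after their values were seen.

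**Figure D2:**
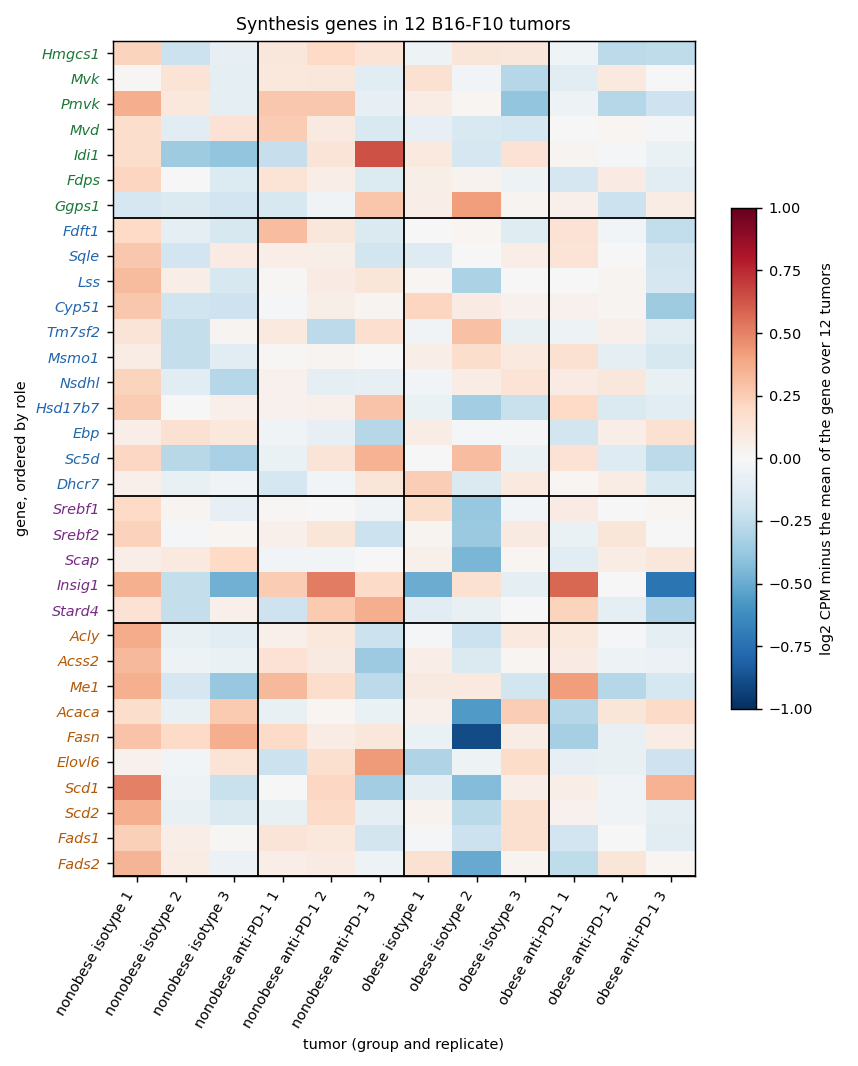
Log2 CPM of each gene minus its mean over the 12 tumors (color scale), for 33 genes in rows grouped by role and 12 tumors in columns grouped by diet and antibody. The column of nonobese isotype tumor 1 is red for most genes, that of obese isotype tumor 2 is blue for Fasn, Acaca, Scap and Fads2, and no group of 3 columns differs throughout.

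Obesity was first compared in tumors that received isotype antibody. No member passed a false discovery rate (FDR) of 0.05 in edgeR's quasi-likelihood F-test, and none passed the study's own thresholds, a change beyond 2-fold together with P below 0.05 before adjustment, in any of the 6 comparisons. The shares of all genes past those thresholds were 1.37% for obesity with isotype, 4.25% for obesity with anti–PD-1 and 0.512% averaged, 2.42% and 2.44% for PD-1 blockade in nonobese and obese mice, and 5.76% for the difference of responses. At an unadjusted P below 0.05 there were 3 members, Fasn and Hsd17b7 lower and Ggps1 higher in obese mice. That is 9.09% of the members, against 13.3% of all genes tested (7.11% higher and 6.17% lower). Groups did not overlap for 4 members (12.1%), Fasn, Hsd17b7, Scap and Ggps1, against 19.4% of all genes. At an FDR of 0.05 edgeR called 0 genes of any kind in this comparison and DESeq2 called 200, none of them a member. The estimates of 23 members were below 0 and of 10 (30.3%) above 0, while 52.1% of all genes were above 0. Members had a median of −0.081 on the log2 scale and all genes 0.013. The lean to lower values depended on nonobese isotype tumor 1, without which the median was 0.034. For all 33 members the 95% interval lay within a 2-fold change in either direction (78.3% of all genes), and for 27 members it lay within 1.5-fold (53.1% of all genes).

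In anti–PD-1–treated tumors, which are different mice, 2 members had an unadjusted P below 0.05 by edgeR, Hmgcs1 and Pmvk, both lower in obese mice. This is 6.06% of members against 10.3% of all genes tested, 4.56% of them lower. Groups did not overlap for 2 members (6.06%), Fasn and Hmgcs1, against 13.6% of all genes. No member reached an FDR of 0.05, by edgeR (50 genes in all, 0.382%) or DESeq2 (270 genes in all). The median log2 fold change was −0.065 for members and −0.015 for all genes, with 22 members below 0 and 11 (33.3%) above, against 46.9% of all genes above. The 95% intervals of all 33 members lay within 2-fold (78.1% of all genes) and of 26 members within 1.5-fold (58.4%). With both treatments averaged, which uses the same 12 tumors again as 6 against 6, Fasn, Pmvk and Hsd17b7 were lower at an unadjusted P below 0.05 (9.09% of members, 10.4% of all genes, 5.19% of them lower), with a smallest FDR of 0.359. In that average 26 members were below 0 and 7 (21.2%) above, against 50.4% of all genes above 0, and the medians were −0.056 and 0.002. Without nonobese isotype tumor 1 the median of members was −0.004. The averaged 95% intervals lay within 2-fold for all 33 members (87.8% of all genes) and within 1.5-fold for 31 (72.4% of all genes). DESeq2 also called 0 members at an FDR of 0.05 and the same 3 at an unadjusted P below 0.05. Estimates were below 0 in both treatments for 14 members (42.4%), against 23.9% of all genes, and these 14 were Mvk, Pmvk, Mvd, Fdps, Fdft1, Lss, Hsd17b7, Insig1, Stard4, Fasn, Elovl6, Scd2, Fads1 and Fads2. The shares with the same sign in both treatments, either way, were 48.5% of members and 46.9% of all genes.

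**Figure D3:**
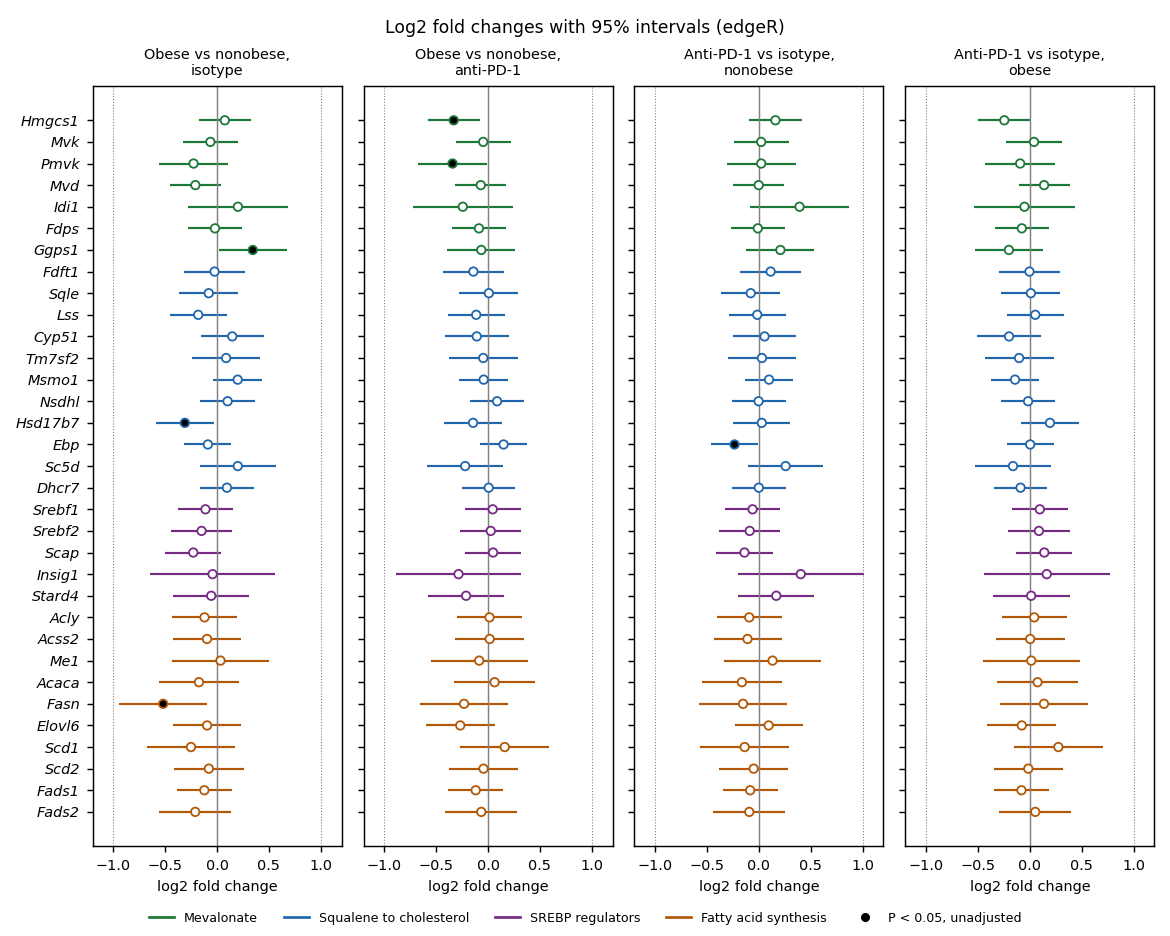
Log2 fold change (horizontal axis) of each of the 33 genes with its 95% interval by edgeR, in 4 panels for the effect of obesity under each antibody and of PD-1 blockade under each diet. Filled points have an unadjusted P below 0.05, dotted lines mark a 2-fold change, and the only interval that crosses a dotted line is that of Insig1 under anti–PD-1 in nonobese mice (upper bound 1.01).

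Among the 7 genes from mevalonate to farnesyl and geranylgeranyl diphosphate, 3 had an unadjusted P below 0.05 in a diet comparison. Hmgcs1 (chr13:119690379-119708260, plus strand), the synthase that makes HMG-CoA, measured 160.5, 170.2 and 163 CPM in nonobese anti–PD-1 tumors and 144, 124 and 125 in obese anti–PD-1 tumors. The groups did not overlap, and the log2 fold change was −0.33 ± 0.12 (SE) (edgeR unadjusted P = 0.014, FDR = 0.317). It kept an unadjusted P below 0.05 when any single tumor was left out, with values from −0.397 to −0.299. Under isotype antibody the same gene measured 173, 128 and 140 CPM in nonobese tumors and 143, 162 and 161 in obese tumors, which overlapped (log2 fold change 0.07 ± 0.12).

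Pmvk (chr3:89454541-89469013, plus strand), which phosphorylates phosphomevalonate, measured 53.7, 44.8 and 39.0 CPM in nonobese isotype tumors and 50.1, 50.2 and 39.4 in nonobese anti–PD-1 tumors. In obese mice it measured 43.9, 42.1 and 31.7 CPM in isotype tumors and 40.3, 34.1 and 35.9 in anti–PD-1 tumors. The groups overlapped in both treatments, with the lowest nonobese value at 39.0. The log2 fold change was −0.34 ± 0.16 with anti–PD-1 (edgeR unadjusted P = 0.0457, FDR = 0.472), an unadjusted call that was lost in 5 of 12 fits that left out a tumor. The mean difference over both treatments was −0.28 ± 0.11 (edgeR unadjusted P = 0.0219, FDR = 0.389), and its P was 0.0688 without nonobese isotype tumor 1 and 0.054 without nonobese anti–PD-1 tumor 2.

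Ggps1 (chr13:14050659-14063488, minus strand) was the only member with an unadjusted P below 0.05 that was higher in obese mice. It measured 15.5, 15.8 and 15.3 CPM in nonobese isotype tumors and 18.2, 23.3 and 17.7 in obese isotype tumors, which did not overlap (log2 fold change 0.34 ± 0.15, edgeR unadjusted P = 0.0417, FDR = 0.364). The unadjusted call was lost in 7 of 12 fits that left out a tumor. It was also lost by DESeq2 (unadjusted P = 0.052) and in edgeR with RLE size factors, total counts, a minimum of 10 counts, only the tumors compared or the replicate block (unadjusted P from 0.0507 to 0.0638). The highest value was that of obese isotype tumor 2, without which the log2 fold change was 0.201 with an unadjusted P of 0.217. With an offset for GC content and exon length it was 0.182 with an unadjusted P of 0.229. The estimates for Mvk (mevalonate kinase), Mvd (the decarboxylase), Idi1 and Fdps lay between −0.21 and 0.2 with isotype and between −0.24 and −0.05 with anti–PD-1, and their unadjusted P values were all above 0.05. In anti–PD-1–treated tumors all 7 genes of this branch were below 0, with a median of −0.088, where 46.9% of all genes were above 0. With isotype 4 were below and 3 above 0, with a median of −0.021.

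The 11 enzymes from squalene to cholesterol were divided with obesity, with 6 above 0 and 5 below 0 averaged over both treatments and a median of 0.019. Hsd17b7 (chr1:169949535-169969241, minus strand), a ketoreductase that takes part in removal of the C-4 methyl groups, was the only one of them with an unadjusted P below 0.05 in a diet comparison. It measured 44.7, 37.4 and 38.8 CPM in nonobese isotype tumors and 35.8, 29.4 and 32.1 in obese isotype tumors, which did not overlap (log2 fold change −0.31 ± 0.13, edgeR unadjusted P = 0.031, FDR = 0.339). It measured 38.7, 38.8 and 45.8 CPM in nonobese anti–PD-1 tumors and 42.9, 33.8 and 34.9 in obese anti–PD-1 tumors, which did overlap. Averaged over both treatments its difference was −0.23 ± 0.09 (edgeR unadjusted P = 0.0263, FDR = 0.408), again lost in 5 of 12 such fits. The isotype difference had an unadjusted P of 0.137 without nonobese isotype tumor 1, 0.0888 without obese isotype tumor 2 and 0.0521 without obese isotype tumor 3, and of 0.0608 with total counts as the scale, all by edgeR. The nearest of the other enzymes was Msmo1, a C-4 methyl sterol oxidase, at 0.20 ± 0.11 with isotype (edgeR unadjusted P = 0.0896, FDR = 0.441). Fdft1 (squalene synthase), Sqle (squalene epoxidase), Lss (lanosterol synthase), Cyp51 (lanosterol demethylase), Tm7sf2 (a sterol reductase), Nsdhl, Ebp, Sc5d and Dhcr7, which encode other steps of the route, had estimates between −0.22 and 0.2 in both treatments.

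The isotype comparison of this branch depended on nonobese isotype tumor 1. Without it, 8 of the 11 enzymes were above 0 with a median of 0.132, and 4 were higher in obese isotype tumors at an unadjusted P below 0.05 by edgeR, a threshold that 13.9% of all genes then passed. These were Sc5d (0.39 ± 0.17, edgeR unadjusted P = 0.0362, FDR = 0.332), Cyp51 (0.32 ± 0.13, edgeR unadjusted P = 0.0316, FDR = 0.324), Msmo1 (0.29 ± 0.12, edgeR unadjusted P = 0.0313, FDR = 0.324) and Nsdhl (0.255 ± 0.114, edgeR unadjusted P = 0.044, FDR = 0.348), and they were named after their values were seen. Cyp51 measured 384, 277 and 277 CPM in nonobese isotype tumors and 371, 338 and 329 in obese isotype tumors, and Msmo1 measured 189, 152 and 167 against 188, 203 and 192. In both genes nonobese isotype tumor 1 lay within or above the obese values, and the other nonobese tumors lay below all of them.

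Of the SREBP regulators, none had an unadjusted P below 0.05 in any of the 6 comparisons. All 5 (Srebf1, Srebf2, Scap, Insig1 and the sterol carrier Stard4) were below 0 with isotype, with a median of −0.112, but 3 of 5 were above 0 with anti–PD-1, and without nonobese isotype tumor 1 only 3 of 5 were below 0 with isotype. Scap (chr9:110333288-110384950, plus strand), which escorts SREBPs to the Golgi, had the smallest P of the group. It measured 188, 192 and 206 CPM in nonobese isotype tumors and 186, 131 and 182 in obese isotype tumors, and these did not overlap, though 188 and 186 were nearly equal. The log2 fold change was −0.23 ± 0.13 (edgeR unadjusted P = 0.0899, FDR = 0.441), and −0.094 without obese isotype tumor 2. It was −0.336 without obese isotype tumor 1 (edgeR unadjusted P = 0.0321, with 16.5% of all genes called). Without obese isotype tumor 3 it was −0.314 (edgeR unadjusted P = 0.0471, with 14.4% of all genes called). In anti–PD-1 tumors Scap measured 176, 176 and 179 CPM in nonobese and 166, 189 and 194 in obese mice, which overlapped.

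The 10 genes of fatty acid synthesis were all below 0 when both treatments were averaged, with a median of −0.059, against 50.4% of all genes above 0. With isotype 9 of 10 were below 0 (median −0.122), and with anti–PD-1 6 were below and 4 above 0 (median −0.054). Without nonobese isotype tumor 1, 5 were below and 5 above 0 on average (median −0.008). Fasn (chr11:120805846-120824547, minus strand) stood out among them. In nonobese mice it measured 1234.1, 1153.1 and 1300.2 CPM in isotype tumors and 1155.9, 1065.5 and 1094.4 in anti–PD-1 tumors. In obese mice it measured 963.9, 543.5 and 1063.9 CPM in isotype tumors and 802.1, 959.8 and 1063.0 in anti–PD-1 tumors. All 6 nonobese tumors were above all 6 obese tumors, but the closest values, 1065.5 and 1063.9, were nearly equal. Among the members only Fasn was separated in this way (3.03%), against 1.06% of all genes.

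The log2 fold change of Fasn averaged over both treatments was −0.38 ± 0.14, a decrease of 22.9% (95% interval −0.67 to −0.08, edgeR unadjusted P = 0.0175, FDR = 0.359). It was −0.52 ± 0.2 with isotype (unadjusted P = 0.0196, FDR = 0.314) and −0.23 ± 0.2 with anti–PD-1 (unadjusted P = 0.258, FDR = 0.77), and the 2 estimates did not differ by the test of the difference (0.29 ± 0.28, unadjusted P = 0.315, FDR = 0.684, all by edgeR). The lowest value came from obese isotype tumor 2. Without that tumor the isotype difference was −0.288 with an unadjusted P of 0.0512, and without nonobese isotype tumor 3 the P was 0.0538. The averaged difference kept an unadjusted P below 0.05 whichever tumor was left out, with values from −0.475 to −0.259. With the offset for GC content and exon length it was −0.262 with an unadjusted P of 0.00747. Acaca, the carboxylase upstream of Fasn, measured 117, 98.3 and 124 CPM in nonobese isotype tumors and 107, 70.0 and 123 in obese isotype tumors, which overlapped. The other 8 genes (Acly, Acss2, the malic enzyme gene Me1, the elongase Elovl6, the desaturases Scd1, Scd2, Fads1 and Fads2) had averaged estimates between −0.18 and −0.03, with unadjusted P values from 0.116 upward.

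**Figure D4:**
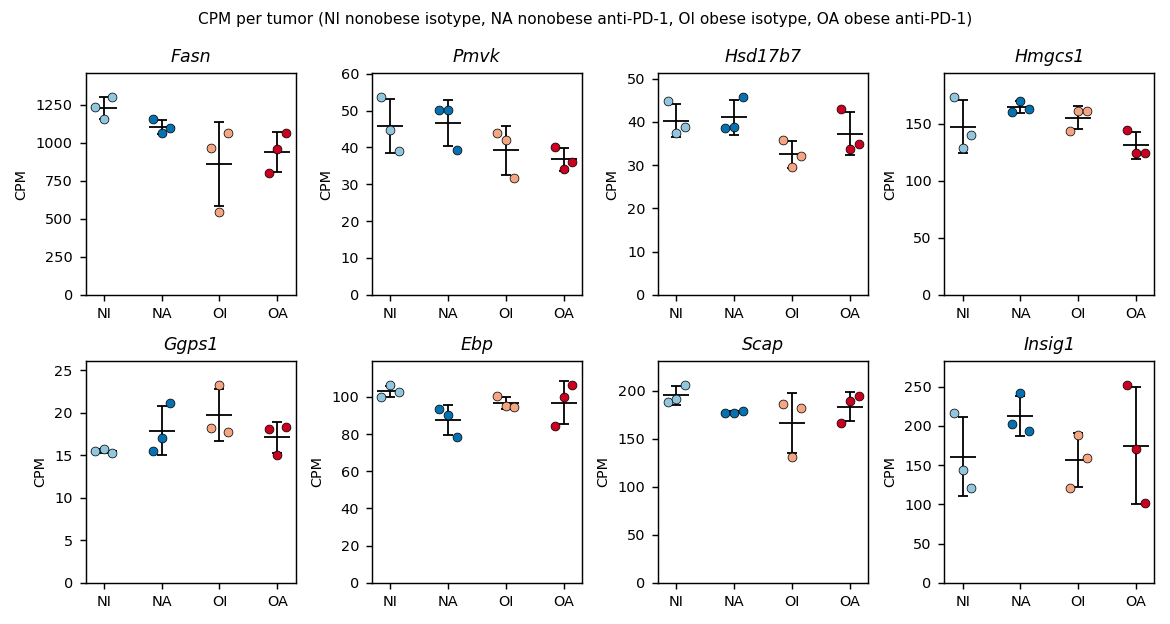
CPM (vertical axes from 0) of 8 genes in each of the 12 tumors, as points by group, with bars for the mean and SD of 3 tumors. For Fasn all 6 nonobese points lie at or above 1065.5 and all 6 obese points at or below 1063.9, while the points of Pmvk and Insig1 overlap between diets.

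PD-1 blockade was then compared with isotype antibody in each diet. In nonobese mice, 1 member had an unadjusted P below 0.05 by edgeR (3.03% of members, 5.23% of all genes tested), and no member reached an FDR of 0.05 by edgeR (0 genes in all) or DESeq2 (9 genes in all). It was Ebp (chrX:8185329-8193512, minus strand), the sterol isomerase that shifts the double bond of the B ring. Ebp measured 99.9, 106 and 103 CPM in isotype tumors and 93.6, 90.4 and 78.3 in anti–PD-1 tumors, which did not overlap (log2 fold change −0.24 ± 0.11, edgeR unadjusted P = 0.0432, FDR = 0.929). The unadjusted call was lost in 6 of 12 fits that left out a tumor, with P values up to 0.12, without nonobese anti–PD-1 tumor 3. In obese mice Ebp measured 101, 95.1 and 94.6 CPM in isotype tumors and 84.2, 100.1 and 106 in anti–PD-1 tumors, which overlapped. The median over members was −0.002 in nonobese mice, against 0.024 over all genes, with 15 members above 0 (55% of all genes) and 18 below. Without nonobese isotype tumor 1 the medians were 0.107 and 0.036, Ebp was not called, and 4 members had an unadjusted P below 0.05 by edgeR, all higher after anti–PD-1, against 7.93% of all genes in either direction. These were Idi1 (0.60 ± 0.24), Insig1 (0.68 ± 0.29), Sc5d (0.45 ± 0.17) and Hmgcs1 (0.29 ± 0.11), with FDR values from 0.497 upward. Groups did not overlap for 2 members (6.06%), Ebp and Scap, against 11.2% of all genes.

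In obese mice, 0 members had an unadjusted P below 0.05 by edgeR, against 7.57% of all genes, and DESeq2 also gave 0. No member reached an FDR of 0.05 by edgeR (0 genes in all) or DESeq2 (105 genes in all). The medians were 0.003 for members and −0.012 for all genes, with 18 members above 0 (47.6% of all genes) and 15 below. Groups did not overlap for 2 members (6.06%), Cyp51, which was lower with anti–PD-1, and Mvd, which was higher, against 12.4% of all genes. The closest values of Cyp51, 328.76 and 328.75 CPM, were equal to within 0.01 CPM. The nearest member was Hmgcs1, at 143, 162 and 161 CPM in isotype tumors and 144, 124 and 125 in anti–PD-1 tumors (log2 fold change −0.25 ± 0.12, edgeR unadjusted P = 0.055, FDR = 0.664). The 95% intervals of all 33 members lay within 2-fold (79.1% of all genes), and of 31 members within 1.5-fold (58.8% of all genes). In nonobese mice 32 members lay within 2-fold (79.6% of all genes) and 29 within 1.5-fold (60.9% of all genes). All 5 SREBP regulators were above 0 in obese mice, with a median of 0.096, whereas in nonobese mice 2 were above and 3 below 0, with a median of −0.062. In obese mice the widest interval among them was that of Insig1, from −0.45 to 0.77.

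The response to anti–PD-1 was compared between diets by the difference of the 2 responses. Hmgcs1 alone had an unadjusted P below 0.05 among members (3.03%, against 12.9% of all genes). Its response was 0.16 ± 0.12 in nonobese mice and −0.25 ± 0.12 in obese mice, and the difference was −0.41 ± 0.17 (edgeR unadjusted P = 0.0287, FDR = 0.325). This value lost an unadjusted P below 0.05 in 7 of 12 fits that left out a tumor, with unadjusted P values up to 0.0856, and it was −0.232 with the GC and length offset. Without nonobese isotype tumor 1 it was −0.54 ± 0.15 (edgeR unadjusted P = 0.00382, FDR = 0.115), and Cyp51 (−0.43 ± 0.18) and Sc5d (−0.61 ± 0.22) also had an unadjusted P below 0.05, against 14% of all genes. The differences are less precise than the single comparisons, with a median half-width of the 95% interval of 0.433 for members against 0.306. Intervals of 30 members lay within 2-fold (65.8% of all genes), the exceptions being Idi1, Insig1 and Scd1, and of 16 within 1.5-fold (30.6%). Differences were above 0 for 17 members (51.5%) and 45.6% of all genes.

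Variation shared between the genes from tumor to tumor within groups was modest and rested largely on 1 tumor. After subtraction of group means, the median Pearson r of log2 CPM over 12 tumors was 0.269 across 528 pairs of members and 0.014 across pairs of 9147 genes in the same range of CPM. Among members the median was 0.088 without nonobese isotype tumor 1 and 0.233 to 0.313 without any other single tumor, an alternative chosen after seeing the data. The shares of pairs above 0.8 were 3.6% and 2.01%. The points share libraries, and the part of the length and GC relations described above in these correlations was not tested. The pair most alike was Scap and Fasn (r = 0.962, Spearman rho = 0.895), followed by Acaca and Fasn (0.941 and 0.888) and by Srebf2 and Fads1 (0.934 and 0.902). Without obese isotype tumor 2 these 3 values of r were 0.801, 0.888 and 0.926, and without the 2 tumors farthest from the median of the gene named first they were 0.909, 0.853 and 0.881. By role, the median r was highest within fatty acid synthesis (0.473), then between SREBP regulators and fatty acid synthesis (0.396) and within the enzymes from squalene to cholesterol (0.344). Within the SREBP regulators it was 0.035. Without obese isotype tumor 2 the first 3 of these medians were 0.331, 0.248 and 0.396, so their order changed. The highest median was then between the enzymes from squalene to cholesterol and the SREBP regulators (0.412, against 0.306 over all 12 tumors). Without nonobese isotype tumor 1 the first 3 were 0.525, 0.326 and 0.036, so the last of them fell to near 0. The most opposed pair was Ebp and Stard4 (r = −0.848).

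Markers of other cells differed more between groups than the module did. The 10 adipocyte markers were all higher in obese than nonobese anti–PD-1 tumors at an unadjusted P below 0.05 (10.3% of all genes), a median of 2.96 on the log2 scale, and Adipoq, Cidec and Fabp4 passed an FDR of 0.05 by edgeR. They were all below 0 in obese against nonobese isotype tumors, 5 of them at an unadjusted P below 0.05 (13.3% of all genes), with a median of −1.46. Their summed CPM was 26.1 to 54.1 in nonobese isotype, 20.4 to 31.8 in nonobese anti–PD-1, 22.3 to 29.9 in obese isotype and 44.0 to 107.5 in obese anti–PD-1 tumors, with up to 3 markers at 0 counts in a nonobese anti–PD-1 tumor and up to 1 in an obese isotype tumor. The 8 macrophage markers were higher in obese than nonobese anti–PD-1 tumors (8 of 8, unadjusted P below 0.05, median 1.34) and lower with anti–PD-1 in nonobese mice (8 of 8, median −1.08, against 5.23% of all genes called). With isotype the direction for obesity was reversed, with all 8 below 0 and 4 of them at an unadjusted P below 0.05 (median −0.533, 13.3% of all genes called). With anti–PD-1 in obese mice 4 were higher at that threshold (median 0.85, 7.57% of all genes called). Their summed CPM was 200 to 443, 139 to 182, 147 to 283 and 214 to 477 in the same order of groups. The mean of Fasn was lower in obese mice both with isotype, where adipocyte markers were below their nonobese level, and with anti–PD-1, where they were above it. The part of these cells in the values of the 33 genes was not tested.

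T cell markers, 6 of 8 of which were tested, had 5 higher in obese than nonobese anti–PD-1 tumors at an unadjusted P below 0.05, again against 10.3% of all genes. Their summed CPM was low, from 5.08 to 7.94 in the first 3 groups and 7.97 to 18.1 in obese anti–PD-1 tumors. Summed skeletal muscle markers varied from 8.54 to 648 CPM between tumors, and the 8 markers had medians of −2.08 with isotype and 0.529 with anti–PD-1 for obese against nonobese mice, none at an unadjusted P below 0.05. Of 6 keratinocyte markers only Krt5 was tested. At an unadjusted P below 0.05 it was lower in obese isotype and in nonobese anti–PD-1 tumors than in nonobese isotype tumors (13.3% and 5.23% of all genes called). Krt5 measured 0.867, 5.17 and 0.625 CPM in nonobese isotype tumors, so the higher mean there came mostly from tumor 2. All 6 keratinocyte markers were at 0 in at least 1 tumor of each other group. The 8 cell cycle genes had a median diet difference of 0.062 over both treatments. Pcna was higher there at an unadjusted P below 0.05, a threshold that 10.4% of all genes passed.

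**Figure D5:**
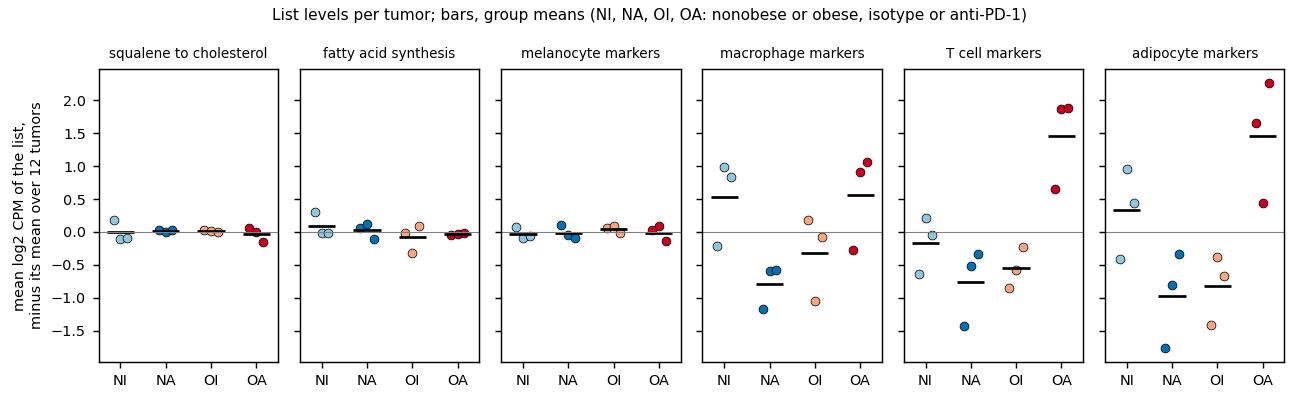
Mean log2 CPM of 2 role groups of the module and of 4 marker lists in each of the 12 tumors, each list centered on its mean over all tumors (vertical axis), with bars for group means. The module and the melanocyte markers stay within a narrow band, whereas macrophage, T cell and adipocyte markers spread widely. T cell and adipocyte markers are highest on average in obese anti–PD-1 tumors, while macrophage markers are nearly level there and in nonobese isotype tumors.

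Further pathway genes were counted from fixed lists, and those named below were picked after their values were seen. Of 14 further synthesis genes 13 were tested, and averaged over both treatments 3 were higher and 1 lower in obese mice by edgeR at an unadjusted P below 0.05, a threshold that 10.4% of all genes passed in either direction and 5.19% as lower. Acsl3, which activates long-chain fatty acids, was higher (0.32 ± 0.11), as were the protease gene Mbtps1 (0.16 ± 0.06), which cleaves SREBPs, and Lpin1 (0.23 ± 0.1). Gpam, which acylates glycerol 3-phosphate, was lower (−0.24 ± 0.1). With isotype 3 were higher (Acsl3, Mbtps1 and Insig2) and 1 lower (Dgat2), against 13.3% of all genes, and with anti–PD-1 none was called in either direction, against 10.3%. With anti–PD-1 against isotype, 2 were higher in obese mice (7.57% of all genes), Dgat2 (0.94 ± 0.26) and Acacb (0.35 ± 0.14), and none was called in nonobese mice (5.23% of all genes). The difference of responses was called for Dgat2 (1.08 ± 0.36), Acacb (0.41 ± 0.19) and Insig2 (−0.62 ± 0.27), where 12.9% of all genes were called. Dgat2 was at 4.11 CPM in nonobese isotype, 3.73 in nonobese anti–PD-1, 2.25 in obese isotype and 4.34 in obese anti–PD-1 tumors, while the median summed CPM of the adipocyte markers was 46.2, 21.7, 26.2 and 80.65 in the same order. The part of these cells in the values of Dgat2 was not tested. Of 13 genes of sterol export, storage and oxysterol signaling, 3 were higher and 0 lower on that average. With isotype 2 were higher and 1 lower (13.3% of all genes called), and with anti–PD-1 2 were higher and 0 lower (10.3% called). Abcg1, a sterol exporter, was the gene that went both ways. It was lower in obese mice with isotype (11.1 CPM in nonobese and 7.05 in obese tumors, −0.65 ± 0.29, edgeR unadjusted P = 0.045, FDR = 0.373) and higher with anti–PD-1 (6.73 and 13.3 CPM, 0.99 ± 0.29, edgeR unadjusted P = 0.00482, FDR = 0.201). Its responses to anti–PD-1 differed between diets by 1.63 ± 0.41 (edgeR unadjusted P = 0.00158, FDR = 0.13). The macrophage markers had the same order of groups, with a median summed CPM of 369.5 in nonobese isotype, 159.6 in nonobese anti–PD-1, 211 in obese isotype and 448 in obese anti–PD-1 tumors, and their part in the values of these lists was not tested. Mylip also had an unadjusted P below 0.05 in the difference of responses (−0.53 ± 0.23, edgeR unadjusted P = 0.0427, FDR = 0.364). Mylip, the ligase that degrades lipoprotein receptors and a known target of liver X receptors, averaged 15.75 CPM in nonobese and 22.8 in obese tumors (0.52 ± 0.12, edgeR unadjusted P = 0.000601, FDR = 0.129). All 6 obese tumors were above all 6 nonobese tumors for Mylip, and 1.06% of all genes were separated by diet in either direction. Abca1, the cholesterol exporter, reached 32.8 CPM in obese mice (0.60 ± 0.19, unadjusted P = 0.00628, FDR = 0.267, by edgeR), and Lipa, the lysosomal acid lipase, measured 128 CPM in nonobese and 142 in obese tumors (0.16 ± 0.06). Of 11 fatty acid oxidation genes, Ppara alone was called for obesity with isotype, and lower, where 13.3% of all genes were called and 6.17% were lower. No gene of these 3 lists passed an FDR of 0.05 by edgeR. Of all 13095 genes, 24 did (0.183%) for obesity averaged over both treatments and 50 (0.382%) for obesity with anti–PD-1.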

How the data were processed

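Per the labels and the study's methods, poly(A) libraries from frozen tumors were made with a stranded kit and read as single ends of 100 bases. The authors aligned reads to mm10 with STAR 2.7.0f, counted them per gene with HTSeq 0.9.1 and deposited raw counts, without normalization, for 12 tumors. Whether the counting used strand is not given in the sources used here, so overlapping and antisense genes are uncertain. All 12 columns were matched to samples by name, and 0 were left unused.

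Counts were normalized by TMM and tested with the quasi-likelihood F-test of edgeR 4.0.16 under R 4.3.3 (glmQLFit with legacy=TRUE), with all 12 tumors in 1 model of 4 group means and 8 residual degrees of freedom. The filterByExpr function kept 13095 of 17519 genes with a count, and Benjamini-Hochberg FDR values cover all of them. The 6 comparisons were obesity in each treatment and averaged, anti–PD-1 in each diet, and the difference of the 2 responses. SE values were derived from the F statistic and intervals are 95%. CPM values use TMM-scaled library sizes, and log2 CPM a prior count of 2. P values measure the spread between these tumors. Exact two-sided permutation of 3 tumors against 3 reaches 0.1 at the lowest, so that no such test was used.

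The members, gene lists and named-gene rule were chosen with earlier results of these data known. Values in every tumor are given for members with an unadjusted P below 0.05 in any comparison (up to 3 per role and comparison) and, in a role with none, for the member with the smallest P. The 3 most alike pairs were named by r. Exon lengths, GC content and positions came from GENCODE vM21 (GRCm38), with the exons of coding transcripts, and promoters from RefSeq. Alternatives were DESeq2 1.42.0, RLE or total-count scaling, 2 other filters, the current glmQLFit, a replicate block, only the tumors compared, and leaving out each tumor. The code was tested on simulated counts. One further gene of these lists is not reported here.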

Additional observations from a re-analysis of the deposited data

Results flagged for a closer look

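Hmgcs1 was set apart because its response to anti–PD-1 differed between diets at an unadjusted P below 0.05 in the test of the difference itself, with a difference of −0.405 on the log2 scale between the response in obese and in nonobese mice (edgeR unadjusted P = 0.0287). It fails the correction over all genes tested (FDR = 0.325), its unadjusted call was lost in 7 of 12 fits that left out a tumor, and with the GC and length offset it was −0.232 with no member called. It was the only member of 33 with an unadjusted P below 0.05 in that comparison, where 12.9% of all genes had one. The cause was not tested.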

How the results depend on the processing

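No member reached an FDR of 0.05 in any comparison under any alternative, and no difference that had an unadjusted P below 0.05 changed sign. Without nonobese isotype tumor 1 estimates of other members did change sign, and the median for obesity with isotype moved from −0.081 to 0.034. The number of members with an unadjusted P below 0.05 moved by more than 1.5 times in these cases. With total counts as the scale it was 1 for obesity with isotype and 1 for anti–PD-1 in obese mice. With every gene of at least 1 count it was 0 for anti–PD-1 in nonobese mice, and with a minimum of 10 counts per tumor it was 1 for obesity with anti–PD-1. With an offset for GC content and exon length, chosen after seeing the data, it was 5 for obesity over both treatments and 0 for the difference of responses.

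The labels do not say that replicate numbers pair the tumors, which are different mice. The 18 pairs with the same number in different groups had a mean correlation of deviations from group means of 0.133 (lowest −0.264). That mean was −0.062 for 36 other pairs, and 6 of 12 tumors were closest to their own number. Whether tumors of the same number were handled together is not known. With the replicate block, counts were 2, 2, 3, 0, 0 and 1 in the order obesity with isotype, with anti–PD-1 and averaged, anti–PD-1 in nonobese and in obese mice, and the difference, so that it was 0 for anti–PD-1 in nonobese mice. Ggps1 (unadjusted P = 0.0585) and Ebp (0.0629) lost their unadjusted calls there.

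When each tumor was left out, counts ranged, in the same order, from 0 to 5, 1 to 4, 2 to 5, 0 to 4, 0 to 1 and 0 to 3. Medians over members ranged from −0.148 to 0.034, −0.086 to −0.032, −0.1 to −0.004, −0.07 to 0.107, −0.034 to 0.038 and −0.126 to 0.085. The count of 0 for obesity with isotype came without obese isotype tumor 2, and counts of 5 in that comparison without nonobese isotype tumor 1 and without obese isotype tumor 1. The cause was not tested. With 3 tumors a group, differences within the intervals given cannot be resolved, and shared sequence limits Acaca, Fdps, Idi1 and Me1.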
